A study of Mus musculus with 12 samples.

Results

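The genes described here are those of the enzymes that carry squalene to cholesterol, named Sqle, Lss, Cyp51, Tm7sf2, Msmo1, Nsdhl, Hsd17b7, Sc5d and Dhcr7. They were chosen by name, as 9 enzymes of these steps, from 2876 genes that appear in either of the tables deposited for mammary tumors treated with a retinoid X receptor (RXR) agonist. The V-125 table lists 8 of the 9, all but Sc5d. The bexarotene table lists 7 of the 9, all but Tm7sf2 and Hsd17b7, and 6 are in both.

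Cholesterol is built in the endoplasmic reticulum from squalene, which is first oxidized and folded into the ring system of lanosterol. The enzymes that follow remove methyl groups from the rings and shift or reduce double bonds until cholesterol is reached. In most cells the genes of this route are switched on together by the SREBP transcription factors when sterols in the membrane run low, and the intermediates left between the steps have activities of their own.

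RNA was sequenced from 12 mammary tumors of female MMTV-Neu mice, in which the mouse mammary tumor virus promoter drives the Neu (Erbb2) oncogene in mammary epithelium. The groups were 4 tumors from mice on control diet, 4 from mice fed V-125 and 4 from mice fed bexarotene, each agonist at 100 mg per kg of diet for 10 days. All 12 tumors carried the same transgene, and ages of the mice were not given in the sources used here. Both agents are synthetic ligands that activate RXR, bexarotene being the approved drug and V-125 a newer compound.

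For V-125 and control, values were given per tumor, with 15571690 to 22574865 reads on genes. For bexarotene, only the authors' group means were used. Both tables stop at an unadjusted p of the authors below 0.05, at 1589 genes for V-125 and 1784 for bexarotene, so that any gene in them was already selected for a difference between its groups. Genes outside a table have no value here, and their absence does not give the size of any difference. Each tumor is a mixture of cells, and for every gene below more cells that make the RNA and more RNA per cell cannot be told apart.

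The region in front of each gene was read to show what the members share in sequence. RefSeq windows of 300 bases on GRCm38.p6, from 250 before to 50 after the start, matched 8 of the 9 members by symbol. Sqle had no entry in the table used here. The stretches printed lie before the annotated start and outside every annotated exon, at most 120 bases each, and are those of the 4 members that had such a stretch with the letters CCAAT (or ATTGG, the same letters on the other strand), which stand in capitals.
Hsd17b7, minus strand, chr1:169969242-169969361: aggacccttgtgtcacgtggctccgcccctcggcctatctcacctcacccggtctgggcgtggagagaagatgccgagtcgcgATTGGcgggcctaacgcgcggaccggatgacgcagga
Lss, plus strand, chr10:76531468-76531587: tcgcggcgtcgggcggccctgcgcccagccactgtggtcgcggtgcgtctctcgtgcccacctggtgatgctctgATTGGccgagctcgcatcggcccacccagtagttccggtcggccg
Nsdhl, plus strand, chrX:72918412-72918520: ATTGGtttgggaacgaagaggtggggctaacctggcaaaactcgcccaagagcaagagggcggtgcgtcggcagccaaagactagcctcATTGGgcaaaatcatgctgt
Sc5d, minus strand, chr9:42264301-42264420: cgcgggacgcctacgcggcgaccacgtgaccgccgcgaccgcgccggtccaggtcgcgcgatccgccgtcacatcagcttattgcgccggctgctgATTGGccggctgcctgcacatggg

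The 8 members matched had 10 windows. The letters CCAAT, on either strand, were in 8 of the 10 member windows, against 37.4% of 32851 windows, and in a window of all 8 members. The GC box GGGCGG was in 9 of the 10 member windows, against 35.7% of windows, and likewise in a window of 8 of 8 members. The letters TCACNCCAC, one spelling of the sterol regulatory element, were in none of the 10 member windows and in 1.24% of all windows. The half-site AGGTCA, which many nuclear receptors including RXR partners can bind, was in 3 of the 10 member windows and in 16.3% of all windows. Those 3 windows were all of 1 member, Dhcr7. None of the 4 letter strings contains another, and each was searched on both strands. A match of letters describes the window and is neither a site nor a cause, and windows of this length leave out anything farther away.

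In the V-125 comparison, the group mean was higher with V-125 than in control tumors for all 8 listed members, where 51.4% of the 1589 listed genes had a higher mean with V-125. The ratio of group means ranged from 1.49 for Dhcr7 to 2.30 for Cyp51, with a median of 1.69, beside a median of 1.23 over all listed genes and of 1.81 over the listed genes with a higher mean. It was above 1.5 for 7 of 8 members, against 37.7% of listed genes. No member passed the test once all protein-coding genes were counted: 0 of 8 had an edgeR quasi-likelihood adjusted p under 0.05 (0% of the 1333 genes tested), the values running from 0.839 to 1. Without adjustment, 4 of 8 had an edgeR p under 0.05. Of the 1333 genes tested, 489 (36.7%) were under 0.05 and higher with V-125. Genes lower with V-125 count in the 1333, so 36.7% understates the share among higher genes, to which all 8 members belong. The 4 of 8 are thus not shown to exceed the share among other higher genes.

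DESeq2 and limma-voom on the same counts also called 0 of 8 after adjustment over all protein-coding genes, where DESeq2 called 4.5% of genes as higher and limma-voom 0%. Their counts without adjustment were 6 of 8 for DESeq2 and 3 of 8 for limma-voom. Of the genes tested, 45.6% and 34.5% were under 0.05 and higher with V-125. Genes lower with V-125 count in the denominator of all these shares, so they understate those among higher genes. When DESeq2 was adjusted over the listed genes only, it called 3 of 8, where 38.8% of genes were called as higher. Adjusted in that way, edgeR called 0 of 8, where 5.1% of genes were called as higher. These differences are therefore given as sizes with their errors, and none as a change that passed the test.

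The first step belongs to Sqle (ENSMUSG00000022351, GRCm38 chr15:59315077-59331192, plus strand), squalene epoxidase, which adds oxygen to squalene and is one of the control points of the route. Its normalized counts, the reads divided by 1 size factor per tumor, were 936, 1691, 1627 and 2231 with V-125 and 752, 899, 1309 and 1280 in controls, here and below in the order of replicates 1 to 4. V-125 replicates 2, 3 and 4 lay above every control tumor, and replicate 1 lay inside the control range. The means were 1621 ± 531 and 1060 ± 278 (SD, n = 4 each), a ratio of 1.53, and edgeR gave a log2 fold change of 0.61 (SE 0.28) with an unadjusted p of 0.0516 and an adjusted p of 1. Of the 70 ways to assign 8 tumors to the groups, the exact two-sided permutation test gave p = 0.143 for Sqle, and the smallest p it can give is 0.0286.

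Lss (ENSMUSG00000033105, chr10:76531588-76557138, plus strand), lanosterol synthase, folds the oxidized squalene into lanosterol. Its normalized counts were 907, 1374, 1953 and 2151 with V-125 and 465, 791, 926 and 1047 in controls. Again replicate 1 was the one V-125 tumor inside the control range. The ratio of means was 1.98 and the log2 fold change 0.98 (SE 0.31), with an unadjusted edgeR p of 0.0110, an adjusted p of 0.956 and an exact permutation p of 0.0857. The antisense gene 4930483K19Rik shares 381 exonic bases with Lss, and the strand setting of the counting was not given in the sources used here, so reads from that stretch cannot be told apart.

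Cyp51 (ENSMUSG00000001467, chr5:4081145-4104746, minus strand), the cytochrome P450 that starts the demethylation of lanosterol, had the largest ratio of the 8 members. Its normalized counts were 655, 1342, 1291 and 1846 with V-125 and 418, 375, 787 and 649 in controls. V-125 replicate 1 exceeded 3 of the 4 control tumors and stood below control replicate 3, while the other V-125 tumors lay above all controls. The means were 1284 ± 488 and 557 ± 195 (SD, n = 4 each), a ratio of 2.30, with a log2 fold change of 1.20 (SE 0.34), an unadjusted edgeR p of 0.00520 and an adjusted p of 0.839. The exact permutation p for Cyp51 was 0.0571. The last 166 exonic bases of Akap9, on the opposite strand, overlap Cyp51.

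Tm7sf2 (ENSMUSG00000024799, minus strand of chromosome 19) encodes a sterol reductase that acts on the double bond Cyp51 leaves, a reaction the lamin B receptor Lbr can also carry out. Its normalized counts were 412, 314, 290 and 386 with V-125 and 226, 136, 252 and 141 in controls. It was the only one of the 8 members whose V-125 tumors all lay above all control tumors. Of the 1589 listed genes, 335 (21.1%) did so, and only the 817 with a higher mean could. V-125 replicate 1 was the highest tumor for Tm7sf2 instead of the lowest. The ratio of means was 1.86 and the log2 fold change 0.89 (SE 0.27), with an unadjusted edgeR p of 0.00783, an adjusted p of 0.902 and an exact permutation p of 0.0286, the smallest possible.

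The gene model behind the Tm7sf2 count differs from that of the other members. The deposited model runs over chr19:6062821-6077197 with a length of 5593 bases, whereas GENCODE M21 ends the gene at 6068373 with 4403 exonic bases. The deposited stretch takes in 99.6% of Vps51, a neighbour on the same strand that is not in the V-125 table. For the other 7 members in that table, the deposited and the GENCODE coordinates were identical. The part of Vps51 reads in the Tm7sf2 count was not tested.

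Msmo1, Nsdhl and Hsd17b7 encode the oxidase, dehydrogenase and ketoreductase of the complex that removes the paired methyl groups of the first sterol ring. Msmo1 (ENSMUSG00000031604, chr8:64718139-64733792, minus strand) had normalized counts of 239, 674, 420 and 817 with V-125 and 229, 194, 488 and 318 in controls. Fewer of its V-125 tumors exceeded all controls than for any other member. V-125 replicate 1 was below the mean of the controls, replicate 3 was below control replicate 3, and only replicates 2 and 4 exceeded every control. Its ratio was 1.75 and its log2 fold change 0.80 (SE 0.41), with an unadjusted edgeR p of 0.0775, an adjusted p of 1 and an exact permutation p of 0.171.

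Nsdhl (ENSMUSG00000031349, chrX:72918557-72958514, plus strand), mutated in X-linked skin and skeletal disorders of sterol synthesis, had normalized counts of 495, 894, 893 and 1163 with V-125 and 383, 593, 642 and 627 in controls. V-125 replicates 2, 3 and 4 lay above all controls and replicate 1 did not. The ratio was 1.53 and the log2 fold change 0.62 (SE 0.27), with an unadjusted edgeR p of 0.0460, an adjusted p of 1 and an exact permutation p of 0.114. Hsd17b7 (ENSMUSG00000026675, chr1:169949535-169969241, minus strand), which also acts on estrone, had normalized counts of 274, 661, 531 and 676 with V-125 and 190, 351, 401 and 368 in controls. Its pattern was the same, with replicate 1 alone inside the control range. The ratio was 1.63 and the log2 fold change 0.71 (SE 0.33), with an unadjusted edgeR p of 0.0552, an adjusted p of 1 and an exact permutation p of 0.143.

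The last steps belong to Sc5d, lathosterol oxidase, which introduces a double bond, and Dhcr7, which reduces the final double bond to give cholesterol and whose substrate is also the precursor of vitamin D. Dhcr7 (ENSMUSG00000058454, chr7:143823145-143848410, plus strand) had normalized counts of 1534, 2266, 3029 and 3258 with V-125 and 1095, 1602, 1973 and 2114 in controls. V-125 replicate 1 lay between control replicates 1 and 2, and the other V-125 tumors were above all controls. The means were 2522 ± 783 and 1696 ± 455 (SD, n = 4 each), the smallest ratio of the 8 at 1.49, with a log2 fold change of 0.57 (SE 0.27), an unadjusted edgeR p of 0.0637, an adjusted p of 1 and an exact permutation p of 0.143. Sc5d (ENSMUSG00000032018, chr9:42251595-42264256, minus strand) was in the bexarotene table only, with group means of 1062 for bexarotene and 741 for control.

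**Figure D1:**
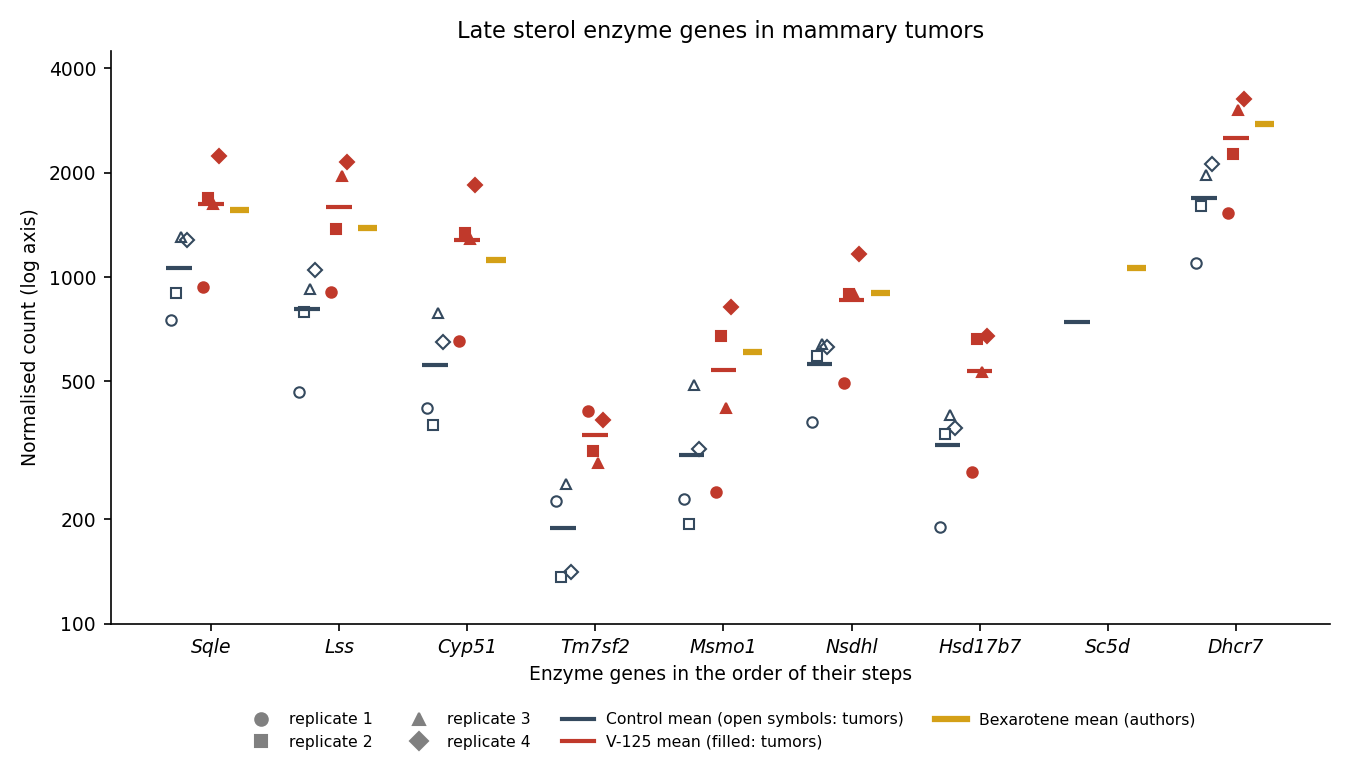
Normalized count (log axis) of the 9 enzyme genes in the order of their steps, with open symbols for the 4 control tumors, filled symbols for the 4 V-125 tumors, short lines for group means and the authors' mean for bexarotene. V-125 replicate 1 (filled circle) sits inside the control range for 7 of the 8 members measured per tumor, and for Tm7sf2 it is the highest tumor at 412. Sc5d has group means only.

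The members' order among tumors was much the same from step to step. V-125 replicate 4 was the highest V-125 tumor for 7 of 8 members and V-125 replicate 1 the lowest for 7 of 8, Tm7sf2 being the exception in both. V-125 replicate 1 lay within the control range for those 7 members, and its level there was 0.778 to 1.18 of the control mean, against 2.18 for Tm7sf2. V-125 replicate 4 was 1.92 to 3.31 times the control mean. Among controls, replicate 1 was the lowest for 5 of 8 members and replicate 3 the highest for 6.

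**Figure D2:**
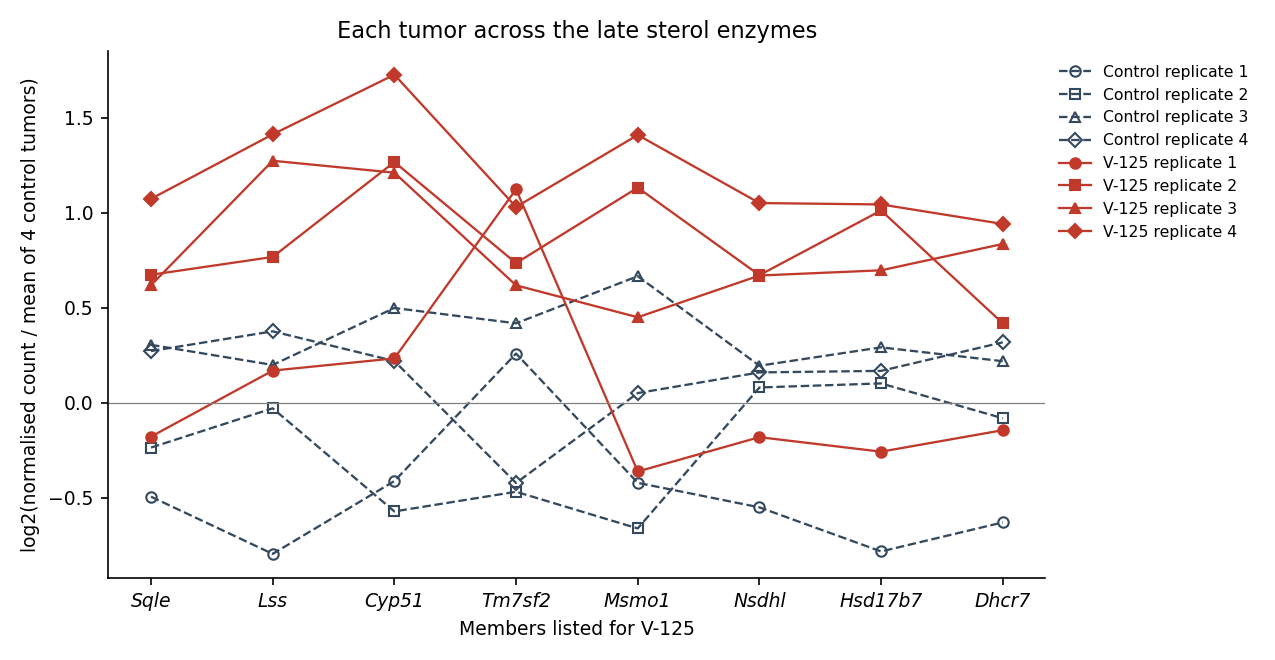
Log2 ratio of each tumor's normalized count to the mean of the 4 control tumors, across the 8 members in the V-125 table, with 1 line per tumor (solid, V-125; dashed, control). The lines of V-125 replicates 2, 3 and 4 run above 0 throughout, and the line of V-125 replicate 1 stays near the controls except at Tm7sf2.

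Summed over the 8 members in FPKM, a unit scaled to gene length and reads per tumor, the levels were 56.2, 95.6, 100.7 and 128.6 with V-125 and 39.6, 51.5, 70.3 and 66.8 in controls. V-125 replicates 2 to 4 were thus above every control in the sum, and replicate 1 was among the controls. In controls, the deepest tumors, replicates 3 and 4 with 22574865 and 21171129 reads on genes, also had the higher sums, and replicates 1 and 2 with 15571690 and 15607137 reads had the lower ones. Among V-125 tumors the highest sum came from replicate 4, which had the fewest reads of that group, 17070644. The part of depth in these sums was not tested.

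V-125 replicate 1 decided how many members separated the groups. Without it, all remaining V-125 tumors lay above all controls for 7 of 8 members, all but Msmo1. The same was true of 26.7% of listed genes, a share that counts genes lower with V-125 in its denominator. This tumor was the lowest V-125 tumor for 7 of 8 members, so leaving it out was bound to raise their lowest V-125 value. The counts without it are therefore no support for a difference. Without replicate 1, all 8 members had an unadjusted edgeR p under 0.05. Of all genes tested, 28.3% were under 0.05 and higher with V-125, a share that leaves out passing genes that were lower. None passed after adjustment, with 0 of 8 members at an adjusted p under 0.05 (0% of genes). The log2 fold changes without this tumor ran from 0.75 for Dhcr7 to 1.42 for Cyp51, with Tm7sf2 at 0.80 the one member whose difference was smaller without it. With 3 tumors against 4, the exact permutation test cannot go below 0.0571, the value 7 of the members reached. Leaving out control replicate 3 in its place gave 2 of 8 members without overlap, against 26.3% of listed genes. The labels give no reason to set either tumor aside, and the values with both stand as the main ones.

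How closely the members moved together within groups was described by centring log2(normalized count + 1) on each group's mean and comparing every member with the mean of the other 7 over the 8 tumors. Pearson's r was between 0.85 and 0.99 for 7 members and -0.17 for Tm7sf2, and Spearman's rho between 0.81 and 1 for the 7 and 0.02 for Tm7sf2. Without the 2 tumors farthest from the median of that mean, r was 0.96 for Sqle, 0.97 for Cyp51, 0.85 for Msmo1 and 0.77 for Nsdhl. It was lower for Lss at 0.49, Dhcr7 at 0.61 and Hsd17b7 at 0.65, whose likeness thus leaned on those tumors, and it was 0.73 for Tm7sf2. These values describe 8 tumors whose members share library and scaling.

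By the same measure, genes outside the 9 were ranked by their likeness to the members' mean among 1136 candidates with a mean normalized count of at least 50. Of the 5 closest, 4 are given here. They were Hsd17b4, a peroxisomal enzyme of fatty acid oxidation, with r = 0.96, and Fanca, a DNA repair protein, with r = 0.95. Dab2ip, a Ras GTPase-activating protein, followed at 0.94 and Rdh11, a retinol dehydrogenase, at 0.92. Their ratios of V-125 to control means were 1.29, 2.19, 1.27 and 1.46 in that order.

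Levels can be compared between members only per length. In control tumors, Dhcr7 had the highest level with 16.2 ± 4.31 FPKM (SD, n = 4), followed by Nsdhl at 10.9, Sqle at 10.6, Cyp51 at 7.00, Lss at 4.15, Hsd17b7 at 3.56, Msmo1 at 2.78 and Tm7sf2 at 1.87. Between each pair of neighbours in that order the ranges over the 4 tumors overlapped, in control and in V-125 tumors alike. Dhcr7 was nevertheless above Nsdhl in 4 of 4 control tumors and in 4 of 4 V-125 tumors. Nsdhl was above Sqle in only 1 of 4 control tumors but in 4 of 4 V-125 tumors. Hsd17b7 was above Msmo1 in 2 of 4 control and 3 of 4 V-125 tumors. The other neighbours kept the order in 3 or 4 tumors of each group. The level of Tm7sf2 rests on the longer deposited gene model.

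In V-125 tumors the levels were 24.0 ± 7.39 FPKM for Dhcr7, 16.7 for Nsdhl, 16.2 for Sqle, 16.1 for Cyp51, 8.19 for Lss, 5.81 for Hsd17b7, 4.84 for Msmo1 and 3.48 for Tm7sf2. The order of the means was the one seen in controls, with Cyp51 nearer to Sqle.

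**Figure D3:**
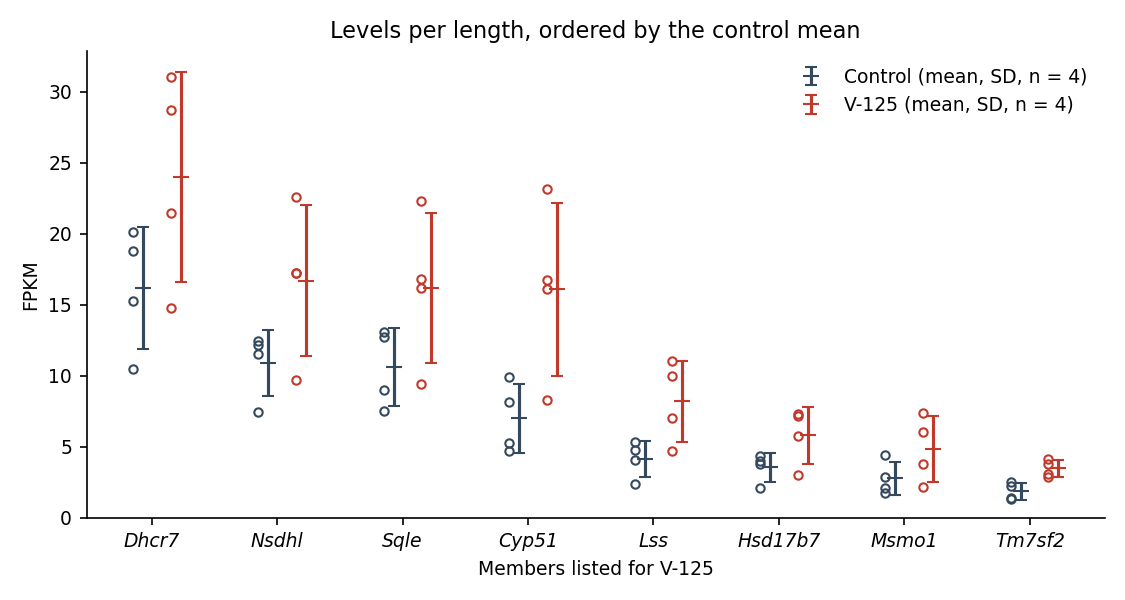
Level per length (FPKM) of the 8 members in the V-125 table, ordered by control mean, with circles for tumors and bars for mean and SD (n = 4 per group). Control means run from 16.2 for Dhcr7 to 1.87 for Tm7sf2, and Cyp51 is at 7.00 in control and 16.1 in V-125 tumors.

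The makeup of the route was examined as each member's percentage of the 8 members' summed FPKM within a tumor. Cyp51 made up 14.8, 17.5, 16.0 and 18.0% with V-125 and 13.3, 9.14, 14.1 and 12.2% in controls. These values did not overlap, so that even V-125 replicate 1, with a low sum, had a larger Cyp51 share than any control. The mean share of Cyp51 was 16.6% ± 1.47 against 12.2% ± 2.17 (SD, n = 4 each), with an exact permutation p of 0.0286 that was one of 8 such tests and was not adjusted.

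Sqle had a mean share of 16.9% against 18.6% in controls and Nsdhl 17.5% against 19.3%, each with an exact permutation p of 0.0571 and overlapping values. The other 5 members gave exact permutation p-values from 0.114 for Dhcr7 to 0.914 for Msmo1. Shares of one sum are tied to each other, so a larger share of Cyp51 lowers those of the rest.

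For bexarotene, the group means were higher than control for all 7 listed members, where 43.3% of the 1784 listed genes had a higher mean. The ratios of means were 1.49 for Sqle, 1.72 for Lss, 2.02 for Cyp51, 1.99 for Msmo1, 1.61 for Nsdhl, 1.43 for Sc5d and 1.64 for Dhcr7, with a median of 1.64. The ratio was above 1.5 for 5 of 7, against 31.7% of listed genes. Over all genes of that table the median ratio was 0.672, and over those with a higher mean it was 1.72. Without values per tumor these ratios have no error and no test.

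Cyp51 had the largest ratio with both agonists, 2.30 with V-125 and 2.02 with bexarotene. The 4 control tumors serve both comparisons, and their means differed between the tables by a factor of 1.006, so a low or high control tumor enters both. The ratio was larger with V-125 for Sqle, Lss and Cyp51, and larger with bexarotene for Msmo1, Nsdhl and Dhcr7. Without V-125 replicate 1, the V-125 ratios of Msmo1, Nsdhl and Dhcr7 were 2.07, 1.75 and 1.68, against 1.99, 1.61 and 1.64 with bexarotene. Which ratio was larger thus depended on that tumor for Msmo1, Nsdhl and Dhcr7. Leaving out V-125 replicate 4 instead lowered the edgeR log2 fold change of Sqle from 0.61 to 0.42 and that of Cyp51 from 1.20 to 0.97. For Sqle and Cyp51, which ratio was larger therefore also depended on a single tumor. The bexarotene mean lay above the lowest V-125 tumor for all 6 members in both tables. That lowest tumor was V-125 replicate 1 each time, at 0.778 to 1.18 of the control mean, so this does not compare the agonists. The difference between the agonists was not tested, since bexarotene has group means only, and the values do not show that they act alike.

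**Figure D4:**
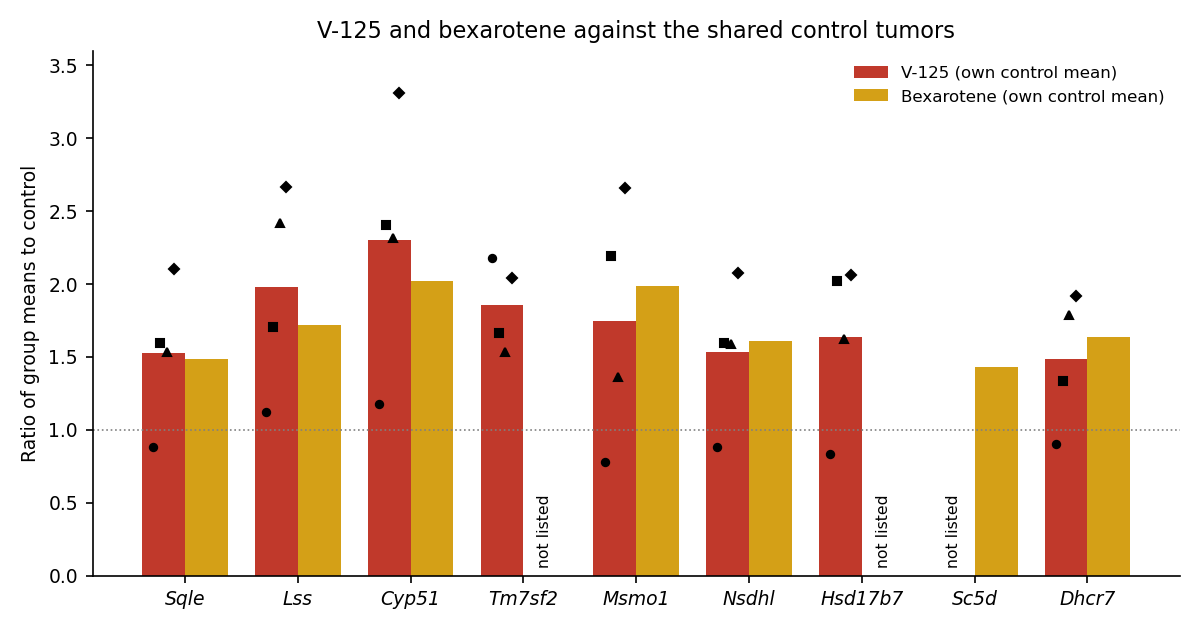
Ratio of the group mean to the mean of the control tumors for V-125 and for bexarotene, by enzyme step, with black symbols for the 4 V-125 tumors (circle, square, triangle and diamond for replicates 1 to 4). Bars run from 1.43 for Sc5d with bexarotene to 2.30 for Cyp51 with V-125, and the circles lie between 0.778 and 1.18 except at Tm7sf2, where the circle is at 2.18.

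The steps before squalene were represented by 8 of 10 genes in the V-125 table, among them Acat2, Hmgcs1, Pmvk, Mvd, Idi1, Fdps and Fdft1. All 8 had a higher mean with V-125 (51.4% of listed genes), with a median ratio of 1.67. After adjustment 0 of 8 passed the edgeR test (0% of genes), and 6 of 8 were under 0.05 before it. Of all genes tested, lower ones included, 36.7% were under 0.05 and higher with V-125. Idi1, which isomerizes isopentenyl diphosphate, had a ratio of 2.37, Fdps, which makes farnesyl diphosphate, 2.22, and Acat2, a thiolase, 1.89. The ratio of Fdps rests on low normalized counts, 22.5 to 77.2 with V-125 and 12.7 to 41.5 in controls, and its groups overlapped. The ratios were 1.47 for Hmgcs1, 1.57 for Pmvk and 1.66 for Mvd.

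Fdft1, squalene synthase, makes the substrate of Sqle and had counts of 1242, 912, 852 and 1117 with V-125 and 780, 591, 748 and 499 in controls. It was the one gene of the 8 whose groups did not overlap, against 21.1% of listed genes, those lower with V-125 included. Like Tm7sf2, Fdft1 had V-125 replicate 1 as its highest tumor. For the other 7, V-125 replicate 1 was the lowest V-125 tumor. Without that tumor, 6 of the 8 did not overlap, against 26.7% of listed genes, but leaving out the lowest tumor of most of them was bound to favour this. With bexarotene, 5 of the 10 were listed, all with higher means, the largest ratio being 2.18 for Idi1.

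Of the 12 genes of the SREBP pathway, 2 were listed with either agonist, and Insig1 is described here. Insig1, a sterol-sensing retention protein that is itself an SREBP target, had normalized counts of 1287, 2142, 2011 and 4531 with V-125 and 573, 517, 1000 and 928 in controls. All V-125 tumors were above all controls. Its ratio was 3.30, with a log2 fold change of 1.72 (SE 0.38), an unadjusted edgeR p of 0.00125, an adjusted p of 0.654 and an exact permutation p of 0.0286. The ratio of Insig1 with bexarotene was 2.64.

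Of 15 genes of sterol export and use, 0 were in the V-125 table and 2 in that of bexarotene, both with lower means. These were Ch25h, which makes a hydroxylated cholesterol, at 0.244 of control, and Apoe, a lipoprotein component, at 0.546. Ch25h was low, with group means of 6.44 for bexarotene and 26.4 for control. Of 4 electron donors to these enzymes, Cyb5b was listed for V-125, with a ratio of 1.42. Of 6 genes for the turnover of sterol enzymes, the ubiquitin ligase Rnf145 was listed for V-125, also with a ratio of 1.42. Neither Cyb5b nor Rnf145 passed the edgeR test after adjustment. The genes of sterol export and use had bexarotene group means only and no test.

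Markers of cell types were read beside the members, and their part in the members' differences was not tested. Of 6 luminal epithelial markers, Epcam and Cdh1 were listed for V-125, both with a ratio of 0.76, and their summed normalized counts were 34079 to 41053 with V-125 and 43376 to 62618 in controls. Of 4 basal markers, Acta2 and Trp63 had ratios of 0.378 and 0.215, with sums of 97.3 to 609 and 525 to 1032, Trp63 being at 0 in V-125 replicate 1. The milk gene Wap, of 4, had a ratio of 0.207, with 45.5 to 142 and 33.3 to 784.

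The endothelial receptor Kdr, of 3 markers, had a ratio of 1.80, with 539 to 835 with V-125 and 251 to 498 in controls, and Mcm2, of 5 proliferation markers, a ratio of 1.46, with 849 to 1590 and 667 to 993. Of 5 T cell markers, Cd2 was listed, at 195 in V-125 replicate 1 and 3.17 to 23.8 in the other V-125 tumors, against 0 to 5.59 in controls, with 0 in control replicate 1. V-125 replicate 1 was also the lowest V-125 tumor for 7 of the members, and control replicate 1 the lowest control for 5 of 8. Cd2 was 1 of 5 T cell markers, and its part in the members' values was not tested. None of 5 adipocyte, 4 fibroblast or 4 macrophage markers was listed for V-125.

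With bexarotene, the means were lower for Krt8 at 0.723 of control and Krt18 at 0.68, for Csn2 at 0.200 and Wap at 0.132, and for the macrophage genes Cd68 at 0.633 and Csf1r at 0.563. They were higher for the adipocyte gene Fabp4 at 3.37 and for Mki67 at 1.58. No basal, fibroblast, endothelial or T cell marker was listed.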

How the data were processed

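RNA was extracted from frozen mammary tumors and poly(A)-enriched libraries were sequenced. Per the labels, the submitters' processing notes name STAR 2.6.1d, featureCounts 1.5.0-p3 and limma. The strand setting and genome build were not given in the sources used here. The V-125 table holds, as deposited by the authors, a raw read count for every listed gene in each tumor, a normalized signal made from it with 1 size factor for each library, and FPKM, all used here. Group means of the normalized signal were deposited by the authors for both comparisons. The p-value, adjusted p-value and log2 fold change columns that the authors deposited hold their own comparison results. They were not used, except to find that no listed gene had an unadjusted p-value of 0.05 or more. Coordinates in the V-125 table matched GENCODE M21 on GRCm38 exactly for 1526 of the 1583 identifiers found there, of 1589.

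Counts were fitted with edgeR 4.0.16 (quasi-likelihood test, filterByExpr, 1333 genes, the recovered size factors) in R 4.3.3. Standard errors are the log2 fold change divided by the square root of F. Benjamini-Hochberg adjustment counted all 21951 protein-coding genes, with unlisted genes entered as not significant at all (a value of 1). The fit was tested on simulated data. Because low-p genes alone are in the table, the spread is estimated over selected genes. Exact two-sided permutation tests used log2(normalized count + 1), with scipy 1.17.1. Labels do not say whether tumors of a group shared litter or batch, so p-values measure the spread between tumors. Alternatives were DESeq2 1.42.0, limma-voom (limma 3.58.1), trimmed-mean and library-total scaling, no filter, adjustment over listed genes, the replicate number as a block, FPKM, untransformed counts, a pseudocount of 0.5, another control mean for bexarotene and leaving out each tumor. Named genes were the 9 members, listed genes of the neighbouring pathways, up to 3 genes of every other list by mean count, and the 5 genes most like the members. Some genes that this rule names are not reported here. Members and lists were chosen with earlier results of these data known.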

Additional observations from a re-analysis of the deposited data

Results flagged for a closer look

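In 58 groups of 4 tumors over 29 named genes, the highest or lowest tumor stood far from its 3 companions in 3 groups, and chance flags about 1 in 20. None was a late sterol enzyme. For Pmvk, an enzyme of the steps before squalene, control replicate 1 had a normalized count of 926.9, the nearest control being at 490.1. For Epcam, a luminal epithelial marker, control replicate 1 was at 53468 with the nearest at 40361. For Cd2, a T cell marker, V-125 replicate 1 was at 195.2 with the nearest at 23.8.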

How the results depend on the processing

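The number of members called by an adjusted p was 0 in the main edgeR fit and in the other fits, leaving out each tumor included, except that DESeq2 adjusted over the listed genes only, a combination chosen after seeing the data, called 3 of 8. The median log2 fold change over the 8 members, 0.76 in the main fit, ranged from 0.68 to 0.76 over other scalings, tools, filters and the block, and from 0.55 (without V-125 replicate 4) to 0.94 (without control replicate 3) when 1 tumor was left out. Every member's log2 fold change kept its direction under these settings. The count of members whose groups do not overlap, 1 of 8, stayed at 1 with FPKM, untransformed counts and a pseudocount of 0.5. It ranged from 1 to 7 when 1 tumor was left out, with 7 without V-125 replicate 1 and 2 without control replicate 3, where 26.3% of listed genes did not overlap. The permutation p of Tm7sf2 became 0.0571 without any 1 tumor, the smallest value 7 tumors allow. With the other control mean, the bexarotene ratios of the 6 members in both tables had a median of 1.67 instead of 1.68.

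Equal replicate numbers in the groups belong to different mice, whose deviations from the group means had correlations of 0.19, -0.03, -0.20 and 0.08. Between unequal numbers the correlations ran from -0.29 to 0.37. Whether tumors of equal number shared a litter or batch was not tested. With the replicate block, 0 of 8 members were called and the median log2 fold change was 0.71. Depth limits Tm7sf2 most, with 118 reads in its lowest tumor.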
